A study of Caenorhabditis elegans with 20 samples.

Results

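The comparison described here is between 2 alleles of *daf-2*, e1370 minus m577, in *Caenorhabditis elegans* that also lacked *daf-16*. The arrays were chosen by their titles, 5 labelled as e1370 with the *daf-16* deletion mgDf50 and 5 labelled as m577 with the same deletion, which makes 10 of the 20 arrays of the study. Both genotypes carried *glp-4*(bn2) and *daf-16*(mgDf50), together with *daf-2*(e1370) in one and *daf-2*(m577) in the other, and are called e1370 without *daf-16* and m577 without *daf-16*. The remaining 10 arrays, 5 of *glp-4*(bn2); *daf-2*(e1370) and 5 of *glp-4*(bn2); *daf-2*(m577), carried *daf-16* and gave the same allele comparison with it present. The *glp-4*(bn2) mutation, present in every strain, stops germ cells from multiplying at high temperature. Per the labels, larvae were raised at 15 °C and moved to 25 °C when most were at the L4 stage, and RNA was taken on the next day from whole sterile adults aged 1 day. The 8 plates of a strain made up 1 biological replicate. The sources used here do not say whether replicates were grown on separate occasions, so the p-values measure the spread between these sets of plates. RNA came from whole animals, in which fewer cells of a type and less RNA per cell cannot be told apart.

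The product of *daf-2* is the worm's receptor of the insulin and IGF-1 type. Its signalling keeps DAF-16, a FOXO transcription factor, out of the nucleus. Reduced *daf-2* function lets DAF-16 enter nuclei, and the long life of *daf-2* mutants requires *daf-16*. The alleles differ in kind. e1370 is a kinase domain mutation of the class with the wider range of defects, among them reduced movement and fertility as adults, and m577 belongs to the milder class. The comparison asks whether the alleles also differ in ways that do not pass through *daf-16*.

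Values were log2 expression levels from the Robust Multi-chip Average (RMA), on which a difference of 1 is a 2-fold difference. Array medians ran from 6.41 to 6.57. Probe sets for Bacillus genes, 15 in number and without a target in the worm, ranged from 4.21 to 6.29 with a median of 4.57, and levels up to 6.29 are called background here. Precision is limited by the number of arrays. Those of e1370 without *daf-16* were less alike than those of m577 without *daf-16*: pairs of arrays correlated at 0.785 to 0.982 in e1370 without *daf-16* and at 0.956 to 0.995 in m577 without *daf-16*, across probe sets. The SD between arrays was higher in e1370 without *daf-16* for 73.2% of probe sets, with medians of 0.357 in e1370 and 0.217 in m577. On the arrays with *daf-16* the median SD was 0.356 in e1370 and 0.321 in m577, so m577 without *daf-16* was the least variable genotype. None of the 4 *daf-16* probe sets, the 4 *daf-2* probe sets or the *glp-4* probe set was called between the alleles without *daf-16* (limma adjusted p = 1 for each). All 4 *daf-2* probe sets had means in the background in every genotype, which leaves no measurable *daf-2* level to compare. The same held for a *daf-16* probe set. The *daf-16* probe set with the largest difference averaged 6.00 ± 0.62 in e1370 and 6.43 ± 0.31 in m577 without *daf-16*, and 6.97 ± 0.50 in e1370 and 6.99 ± 0.18 in m577 with *daf-16* (SD, n = 5 each). The sources used here do not say whether any *daf-16* probe set lies inside the deleted part, so these levels do not check the labels.

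Without *daf-16* few allele differences passed the test. Of 22548 probe sets, 1 differed between e1370 and m577 (limma, Benjamini-Hochberg adjusted p under 0.05), which is 0.00443%, and it belonged to the catalase family. With *daf-16* present the same comparison called 297 probe sets, 1.32% of those tested, from 264 genes. Of these, 164 (0.727%) were higher and 133 (0.59%) lower in e1370. The split between higher and lower calls with *daf-16* moved with the scaling of the arrays, being 191 higher and 118 lower after centring each array on its median and 116 higher and 155 lower after cyclic loess. At an unadjusted p under 0.05, 775 probe sets (3.44%) differed without *daf-16*, 379 higher (1.68%) and 396 lower (1.76%) in e1370, against 3324 (14.7%) with *daf-16*. The e1370 arrays did not overlap the m577 arrays for 146 probe sets (0.648%) without *daf-16*, 85 higher (0.377%) and 61 lower (0.271%), and for 682 (3.02%) with it. The dependence of the allele difference on *daf-16* was itself tested, as the difference with *daf-16* minus the difference without it. This test called 40 probe sets (0.177%), 22 in the positive (0.0976%) and 18 in the negative direction (0.0798%), from 33 genes, and 1247 (5.53%) at an unadjusted p under 0.05.

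The sizes of the differences gave the same order. The SD of the allele differences over all probe sets was 0.308 without *daf-16* and 0.465 with it. Differences of at least 2-fold were found for 280 probe sets without *daf-16* and 1078 with it. At least 4-fold differences numbered 4 without *daf-16* and 82 with it. The largest was 2.52 on the log2 scale without *daf-16* and 6.6 with it. The median 95% interval of a difference reached 0.47 to either side, and for 74.3% of probe sets without *daf-16* the whole interval lay between -1 and 1. For the others the interval reached a 2-fold difference or more.

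**Figure D1:**
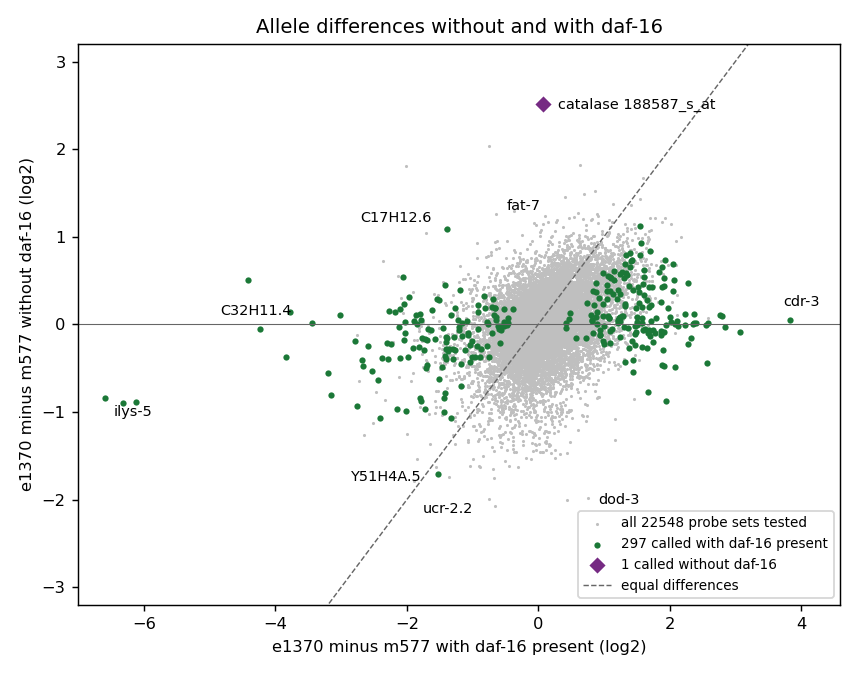
Each point is a probe set, with the e1370 minus m577 difference with *daf-16* on the horizontal axis and without *daf-16* on the vertical axis (both log2). Green points are the 297 probe sets called with *daf-16* and the diamond is the 1 called without it. The dashed line marks equal differences, and 278 of the 297 green points kept less than 0.5 of their size without *daf-16*. At least 0.5 was kept by 6.4% of the green points and by 34.7% of all probe sets, whose differences with *daf-16* were mostly small (median size 0.21).

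The 297 probe sets called with *daf-16* were followed on the arrays without it. These arrays are separate, so the values without *daf-16* played no part in choosing the probe sets, while their values with *daf-16* were the values that chose them and are given only as a description. Turned to the direction seen with *daf-16*, the median difference was 0.09 without *daf-16* (quartiles -0.06 and 0.38) against 1.44 with *daf-16*. The direction was the same in 195 of the 297 (65.7%), against 59.6% of all 22548 probe sets. At least 0.5 of the size was kept by 19 (6.4%), against 34.7% of all probe sets, whose median size with *daf-16* was 0.21. Among the 297, 5 kept the direction at 2-fold or more, as did 208 of all 22548 probe sets. No probe set was called in both comparisons. At an unadjusted p under 0.05 (3.44% of all probe sets), 35 of the 297 (11.8%) differed without *daf-16*, 32 in the same direction and 3 in the opposite one. For 262 of the 297 the 95% interval without *daf-16* held 0, as it did for 21773 of all 22548 probe sets. For 285 it ended below the size seen with *daf-16*, against 3497 of all probe sets. That size chose the 297, and its own error is left out of this count. The test of the dependence on *daf-16* called 36 of the 297, and 40 of all probe sets. Among the 60 called with *daf-16* at 4-fold or more, the median was 0.10 without *daf-16* against 2.37 with it, and none kept at least 0.5 of its size. Over all 22548 probe sets the differences without and with *daf-16* correlated at Pearson r = 0.371 and Spearman rho = 0.312, across probe sets that share their arrays and are not independent replicates.

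A low level limits what could be seen for some of the 297. In 81 of them, 61 higher and 20 lower in e1370 with *daf-16*, the mean level over the 10 arrays without *daf-16* lay in the background, as it did for 44.6% of all probe sets. In these 81 the median difference without *daf-16* was 0.00. The other 216 had levels above background and a median difference of 0.23 without *daf-16*, against 1.45 with it, and 154 of them (71.3%) kept the direction. The 297 were chosen for a gap between the genotypes with *daf-16*. The mean farthest from the other genotypes was that of e1370 with *daf-16* for 229 of them (77.1%, against 25.4% of all probe sets). It was that of m577 with *daf-16* for 67 (22.6%, against 40.1% of all probe sets).

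The genes with the largest falls in e1370 with *daf-16* show how such a difference looked without it. *ilys-5*, an invertebrate-type lysozyme gene, had levels of 12.47, 11.80, 11.93, 11.57 and 11.27 in e1370 without *daf-16*, against 12.10, 12.79, 12.83, 12.86 and 12.66 in m577 without *daf-16*. Both genotypes expressed it strongly, and replicate 1 of e1370 lay above replicate 1 of m577, so the groups overlapped. The difference was -0.84 ± 0.24 (SE), 1.80-fold lower in e1370 (limma adjusted p = 1), and the other *ilys-5* probe sets gave -0.90 and -0.89. The probes of all these *ilys-5* probe sets, the main one included, can bind more than 1 transcript. With *daf-16* present, *ilys-5* averaged 5.89 ± 0.52 in e1370 and 12.49 ± 0.25 in m577 (SD, n = 5 each), a difference of -6.6 ± 0.24 (adjusted p = 1.28e-11). The difference between the allele differences was -5.76 ± 0.35 (adjusted p = 5.36e-08). The e1370 mean with *daf-16* lay in the background, which limits the size of both values.

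The infection response gene *irg-5* had levels of 12.90, 12.86, 12.91, 12.97 and 12.93 in e1370 without *daf-16*, against 12.95, 12.83, 12.51, 12.77 and 12.80 in m577 without *daf-16*. The groups overlapped and the difference was 0.14 ± 0.35 (limma adjusted p = 1), where it had been -3.78 ± 0.35 with *daf-16* (adjusted p = 6.88e-06). *C32H11.4* ran from 11.84 to 13.03 in e1370 and from 12.35 to 12.93 in m577 without *daf-16* (n = 5 each), a difference of -0.05 without *daf-16* against -4.23 with it, where its e1370 mean, 6.22, lay in the background. *dod-24*, another gene of the response to infection, differed by 0.10 without *daf-16* and -3.02 with it, and *C17H12.8* by -0.37 and -3.84, with a second probe set at 0.01 and -3.45. For *ilys-5*, *irg-5*, *C32H11.4*, *dod-24* and *C17H12.8* the dependence on *daf-16* passed its test (adjusted p from 5.36e-08 to 0.00636). *irg-8* (-0.41 without *daf-16* and -2.68 with it) passed too (adjusted p = 0.0318). For *bcf-1* (-0.80 and -3.16), the C-type lectin *clec-265* (-0.19 and -2.78), *F09C8.1* (-0.93 and -2.76) and *R09H10.5* (-0.24 and -2.60) it did not (adjusted p from 0.298 to 0.692). Another *F09C8.1* probe set gave -0.98 without *daf-16* (unadjusted p = 0.00395) and -2.01 with it, and its dependence did not pass either (limma adjusted p = 0.771). Without replicate 2 of e1370 without *daf-16*, whose level was 9.33, the value of *bcf-1* without *daf-16* was -0.19. Without the same array, at 8.80 for *R09H10.5*, that gene's value was 0.40, that of *irg-8* was -0.15 and that of *clec-265* was 0.00. Without replicate 5 of that genotype *clec-265* was at 0.11.

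Most of the 10 genes that rose most in e1370 with *daf-16* were low in both alleles without it. *cdr-3*, of a family named for its response to cadmium, had levels of 4.62, 4.72, 4.61, 4.69 and 4.68 in e1370 without *daf-16*, against 4.65, 4.66, 4.6, 4.51 and 4.65 in m577 without *daf-16*. All 10 values lay in the background, which leaves no measurable level to compare. With *daf-16* its mean was 8.95 ± 0.92 in e1370 and 5.12 ± 0.16 in m577 (SD, n = 5 each), and the dependence on *daf-16* was 3.78 ± 0.40 (limma adjusted p = 0.000113). *F40G12.5*, the small heat shock gene *hsp-16.21*, the glutathione S-transferase gene *gst-3*, *K03D3.2*, *Y51A2A.4* and the chemoreceptor gene *srg-32* likewise had means in the background in both genotypes without *daf-16*. Above background, *piit-1* averaged 6.61 ± 0.29 in e1370 and 6.6 ± 0.15 in m577 without *daf-16*, a difference of 0.02, against 2.37 with *daf-16*. *Y39G8B.7* differed by -0.09 without *daf-16* and 3.08 with it, and *T20G5.8* by -0.45 and 2.57. The value of *T20G5.8* without *daf-16* was -0.81 without replicate 2 of e1370 without *daf-16* and -0.13 without replicate 5.

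**Figure D2:**
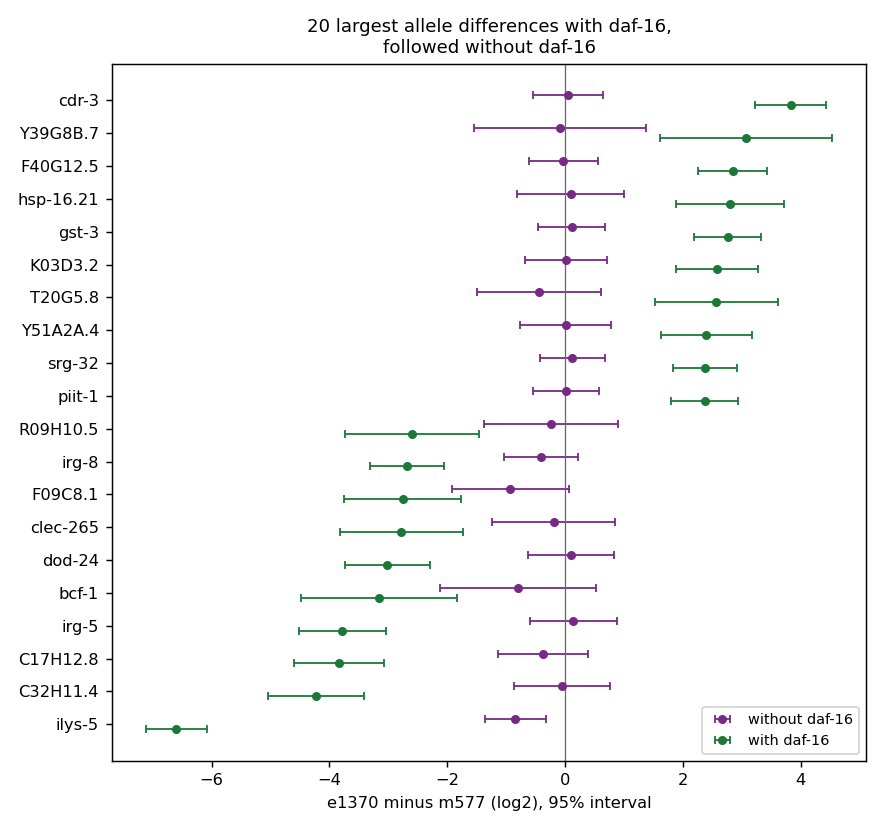
The e1370 minus m577 difference (log2, with its 95% interval from limma) for the 10 largest rises and 10 largest falls with *daf-16*, drawn without *daf-16* (purple) above its value with *daf-16* (green). The purple points lie between -0.93 and 0.14, and the interval of 19 of the 20 genes holds 0 without *daf-16*, *ilys-5* being the exception. Other probe sets of these genes are not drawn.

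What remained without *daf-16* began with a catalase. The probe set is annotated to 2 genes of the catalase family, the enzymes that break down hydrogen peroxide, and cannot be assigned to either. It is described although the naming rule left it out, because it was the 1 probe set called. Its levels were 10.18, 8.80, 9.93, 9.97 and 8.30 in e1370 without *daf-16*, against 7.07, 6.74, 6.98, 6.94 and 6.85 in m577 without *daf-16*. The 5 e1370 arrays all lay above the 5 m577 arrays, and the spread was far wider in e1370 (9.43 ± 0.83) than in m577 (6.92 ± 0.13; SD, n = 5 each). The difference was 2.52 ± 0.36 (SE), 5.72-fold higher in e1370 (limma adjusted p = 0.0417). With *daf-16* present both genotypes were high, at 10.88 ± 0.83 in e1370 and 10.80 ± 0.22 in m577, and the difference was 0.07 (adjusted p = 0.94). The difference between the allele differences was -2.44 ± 0.51 and did not pass its test (adjusted p = 0.083).

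The call rested on a narrow margin, although the value hardly moved. Leaving out each of the 20 arrays gave differences of 2.33 to 2.80, and the call held in 5 of the 20 (adjusted p from 0.00528 to 0.228). In 12 other settings the difference was 2.36 to 3.11 and the call held in 7 (adjusted p from 6.2e-06 to 0.68). The array also carries worm control probe sets, which were fitted apart from the others. The 3 made for catalase lay in the same direction and did not pass. The 3' one had levels of 9.19, 7.76, 8.97, 8.49 and 7.22 in e1370 without *daf-16*, against 6.46, 5.95, 6.21, 6.20 and 6.41 in m577 without *daf-16*. Its groups did not overlap, and neither did those of the middle and 5' probe sets. The differences were 2.08 ± 0.36, 1.63 ± 0.37 and 1.29 ± 0.36 for the 3', middle and 5' probe sets (limma adjusted p = 0.134, 0.497 and 1, with 0.00442% of the 22625 probe sets called in this fit). In m577 without *daf-16* the means of all 3 (6.25, 6.12 and 5.57) lay in the background. With *daf-16* these probe sets differed by 0.29 to 0.52. A probe set annotated to *ctl-2* alone, the peroxisomal catalase gene, differed by -0.46 ± 0.31 without *daf-16* (adjusted p = 1). None of the 15 worm control probe sets was called and 3 had an unadjusted p under 0.05. The actin, GAPDH, *gly-14* and ubiquitin probe sets differed by -0.49 to 0.36.

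After the catalase, no gene passed the threshold, and the genes next in order of p are given as values. *fat-7*, which encodes a stearoyl-CoA desaturase that makes monounsaturated fatty acids, had levels of 8.84, 8.52, 9.73, 8.98 and 8.87 in e1370 without *daf-16*, against 8.25, 7.43, 7.93, 7.55 and 7.46 in m577 without *daf-16*. All e1370 arrays lay above all m577 arrays. The difference was 1.26 ± 0.21, a ratio of 2.40 (limma adjusted p = 0.156). With *daf-16* it was -0.65 ± 0.21 (adjusted p = 0.137), so the order of the alleles was opposite, and the difference between the allele differences passed its test (-1.91 ± 0.30, adjusted p = 0.00671). e1370 without *daf-16* was the highest of the genotypes, and m577 without *daf-16* averaged 7.72 beside 7.11 in e1370 and 7.76 in m577 with *daf-16*.

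*dod-3*, named as a gene downstream of *daf-16*, had levels of 7.41, 9.27, 7.61, 7.48 and 7.36 in e1370 without *daf-16*, against 9.60, 10.28, 9.77, 10.04 and 9.35 in m577 without *daf-16*. The groups did not overlap, although replicate 2 of e1370 came close to the lowest m577 array. The difference was -1.98 ± 0.36 (limma adjusted p = 0.205), and without that replicate it was -2.34 and passed (adjusted p = 0.00521). With *daf-16* both alleles were higher, at 11.68 in e1370 and 10.92 in m577, a difference of 0.75 (adjusted p = 0.332). The dependence on *daf-16* was 2.74 ± 0.50 (adjusted p = 0.0282), and over the 20 arrays left out in turn its adjusted p ran from 0.00128 to 0.0743, under the threshold in 9.

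*ucr-2.2*, a core subunit gene of the ubiquinol-cytochrome c reductase of mitochondria, was covered by a pair of probe sets that gave like differences. The more strongly different one had levels of 8.68, 6.98, 7.76, 7.99 and 6.72 in e1370 without *daf-16*, against 9.07, 10.27, 10.01, 10.04 and 9.12 in m577 without *daf-16*, again with no overlap. The differences of the pair were -2.08 ± 0.38 and -1.99 ± 0.41 without *daf-16* (limma adjusted p = 0.226 and 0.415) and -0.65 and -0.75 with it (adjusted p = 0.452 and 0.414). The dependence on *daf-16* did not pass (adjusted p = 0.7 and 0.899). The list of 41 genes of the respiratory chain and ATP synthase, *ucr-2.2* among them, had a median of -0.10 without *daf-16*.

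*C17H12.6* had levels of 9.43, 10.50, 9.82, 10.04 and 9.91 in e1370 without *daf-16*, against 9.47, 9.06, 8.31, 8.79 and 8.63 in m577 without *daf-16*. Replicate 1 of e1370 lay just below replicate 1 of m577 and the other arrays were apart. The difference was 1.09 ± 0.28 (limma adjusted p = 1), against -1.39 ± 0.28 with *daf-16*, where the gene fell in e1370 (adjusted p = 0.0197). The difference between the allele differences was -2.47 ± 0.40 (adjusted p = 0.00804), and it was the 1 probe set of the 297 with a 2-fold or larger value in the opposite direction without *daf-16*. The e1370 mean with *daf-16*, 5.64, lay in the background, which limits the values that use it.

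**Figure D3:**
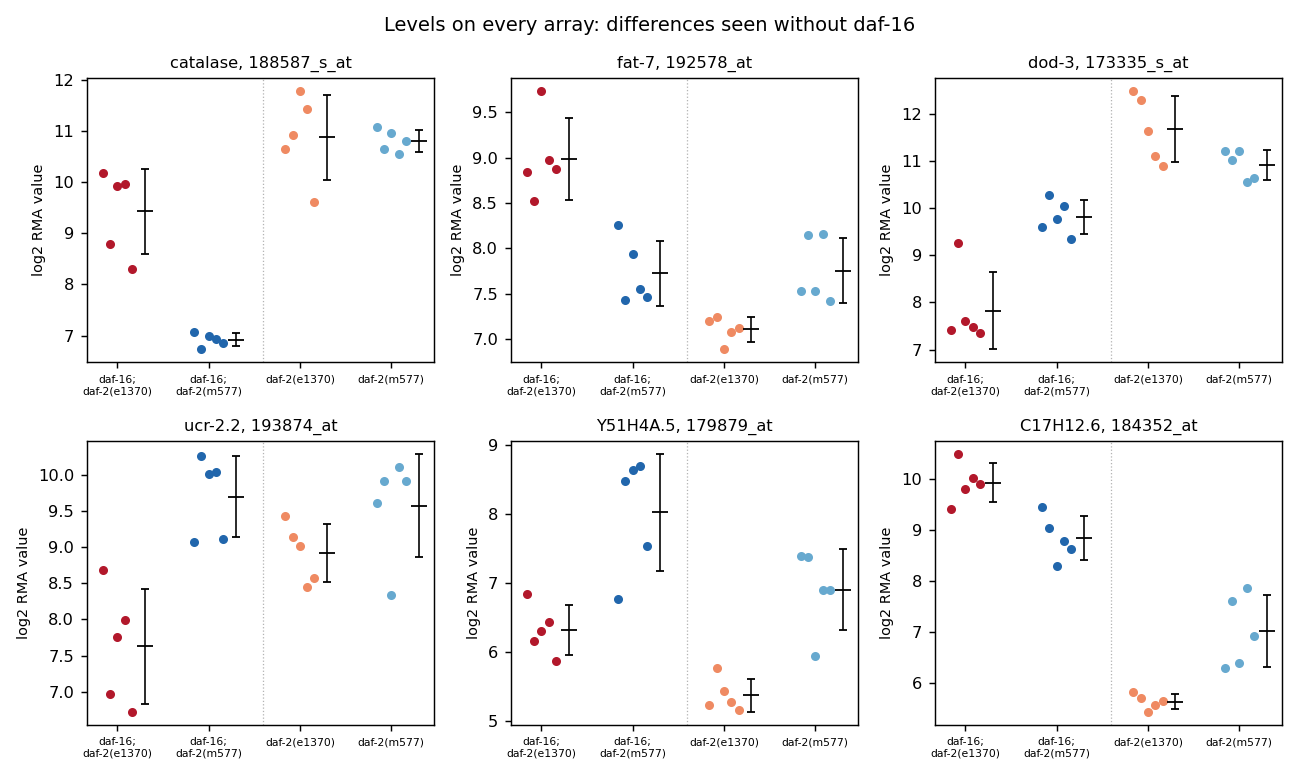
Log2 RMA level on every array (points, by replicate number from left to right) with the mean and SD to the right, for the catalase probe set and 5 named genes. In each panel e1370 without *daf-16* and m577 without *daf-16* stand left of the dotted line and e1370 and m577 with *daf-16* right of it. Y51H4A.5 has e1370 below m577 on both sides of the line, and for fat-7, dod-3 and C17H12.6 the order of the alleles turns.

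*Y51H4A.5* had values of like size in the same direction with and without *daf-16*. Its levels were 6.85, 6.16, 6.30, 6.43 and 5.87 in e1370 without *daf-16*, against 6.77, 8.48, 8.65, 8.71 and 7.55 in m577 without *daf-16*. Replicate 1 of m577 lay within the e1370 range, and the other 4 m577 arrays were higher. The difference was -1.71 ± 0.34 (limma adjusted p = 0.393) without *daf-16* and -1.53 ± 0.34 with it (adjusted p = 0.0314), and the difference between them was 0.17 (adjusted p = 0.98). The e1370 mean with *daf-16*, 5.37, lay in the background, which limits that value.

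Further genes kept the direction and part of the size seen with *daf-16*, each with an unadjusted p under 0.05 and an adjusted p of 1 without it. *F13B6.3* averaged 8.13 ± 0.70 in e1370 and 9.20 ± 0.25 in m577 without *daf-16*, a difference of -1.07 against -1.33 with it, and its arrays did not overlap. The lipase-like gene *lipl-2* differed by -1.0 without and -1.44 with *daf-16*, and the leucine carboxyl methyltransferase gene *lcmt-1* by 1.12 and 1.55. The cytochrome P450 genes *cyp-37A1* (-0.96 and -1.73) and *cyp-37B1* (-0.84 and -1.81), the P-glycoprotein *pgp-1* (-0.97 and -2.15), the trehalase *tre-3* (-0.70 and -1.18), the nuclease *nuc-1* (-0.87 and -1.79) and the aspartyl protease *asp-8* (-0.62 and -1.52) also lay lower in e1370 both without and with *daf-16*. *gfi-1* differed by -1.07 without and -2.42 with *daf-16*. Of these genes, *cyp-37B1*, *pgp-1*, *nuc-1*, *asp-8* and *gfi-1* kept less than 0.5 of the size. Of the 19 probe sets that kept at least 0.5 of it, 12 were higher in e1370 and 7 lower. Among the higher were *Y43B11AR.3* (0.72 without and 1.42 with *daf-16*) and *F39H2.3* (0.92 and 1.56). Of the 297, the arrays without *daf-16* did not overlap for 4 (1.35%, against 0.648% of all probe sets), those of *F13B6.3*, *dod-23*, *K03A11.5* and *F28H7.3*, although the unadjusted p of *K03A11.5* and *F28H7.3* was 0.0832 and 0.307. These genes, *lipl-2* to *F28H7.3*, were picked by their size or p without *daf-16* among the 297, so their values are a description.

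The other genes nearest to the threshold without *daf-16* were not called, and several were measured by more than 1 probe set. *K08D8.6* (1.30 ± 0.29), *ero-1*, which encodes an oxidoreductase of the endoplasmic reticulum (0.51 ± 0.11), and *cccp-1*, a gene of dense core vesicle formation (-0.64 ± 0.15), were each measured by other probe sets that gave 0.47 and -0.07, -0.06 and 0.00. The hormone-sensitive lipase homologue *hosl-1* (0.81 ± 0.18) and the DnaJ domain gene *dnj-16* (1.53 ± 0.37) had a second probe set in the same direction, at 0.44 and 1.15, the first *hosl-1* probe set lying in the background in every genotype. *F20G2.5* (1.49 ± 0.36), *F55G11.3* (0.92 ± 0.23), the sodium-proton exchanger *nhx-6* (-0.74 ± 0.16), *R12E2.13* (-0.72 ± 0.15), the FK506-binding protein gene *fkb-1* (-0.83 ± 0.21) and the mannosidase gene *mans-3* (-0.88 ± 0.22) rested on 1 probe set each. Of these, the dependence on *daf-16* passed for *R12E2.13*, which differed by 0.50 with *daf-16* (limma adjusted p = 0.0211). Without *daf-16* the e1370 means of *nhx-6* (5.64) and *mans-3* (5.96) and the m577 mean of *dnj-16* (5.52) lay in the background, which limits their differences.

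The converse was also asked, how differences seen without *daf-16* stood with it. The 775 probe sets at an unadjusted p under 0.05 without *daf-16*, turned to their own direction, had a median of 0.26 with *daf-16*. Over all 22548 probe sets, turned likewise, the median was 0.06. The direction was the same for 560 of the 775 (72.3%), against 59.6% of all probe sets. With *daf-16*, 35 of the 775 were called, against 297 of all probe sets. For the 22 at an unadjusted p under 0.001, 13 had the same direction (59.1%, near the share of all probe sets). Their median was 0.08 with *daf-16* against 1.23 without, and 1 was called with *daf-16*. Along the chromosomes, the share at an unadjusted p under 0.05 without *daf-16* was 3.37% on I, 3.45% on II, 4.17% on III, 3.82% on IV, 2.98% on V and 3.75% on X.

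Gene lists were described with 1 probe set per gene, without a test of the list. Over all 17118 genes the median allele difference without *daf-16* was -0.01, with 260 genes (1.52%) higher and 312 (1.82%) lower at an unadjusted p under 0.05. With *daf-16*, 136 (0.794%) were called higher and 108 (0.631%) lower. The 1 probe set called without *daf-16* has 2 symbols and stands for no gene, so no list could hold it. With *daf-16*, 26 of the 46 lists held a called gene. The median lay within 0.25 of 0 for 42 lists. The small heat shock proteins had a median of 0.01 over 12 genes without *daf-16* against 0.93 with it, where 4 rose, *hsp-16.21*, *hsp-12.6*, *hsp-12.3* and *hsp-16.20* (-0.10 to 0.10 without *daf-16*). A pair of this list had values of like size in both comparisons, *hsp-16.2* at 1.43 and *hsp-16.41* at 1.36 without *daf-16* and 1.54 and 1.41 with it, none of these called. The 13 intestinal genes had a median of -0.14 without *daf-16* and -1.28 with it, where *pho-1*, *vha-6* and *asp-1* fell. Without replicates 2 and 5 of e1370 without *daf-16* the intestinal median without *daf-16* was 0.18.

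The 20 genes reported elsewhere as raised through *daf-16* had a median of -0.18 without *daf-16*, with 1 gene higher (*fat-7*) and 2 lower (*dod-3* and the long noncoding RNA gene *tts-1*) at an unadjusted p under 0.05. The superoxide dismutase *sod-3* differed by 0.10 without *daf-16* and 1.29 with it. The 11 genes reported as lowered through *daf-16* had a median of -0.09 without *daf-16* against -1.08 with it, and 1 was lower at an unadjusted p under 0.05 (*dod-23*, -0.64). The published work behind both lists may have used these arrays. The 15 genes of the insulin pathway below *daf-2* had a median of 0.03, none of them at an unadjusted p under 0.05, and the values farthest from 0 were those of the kinase genes *akt-2* (-0.59) and *sgk-1* (-0.41). The 5 yolk protein genes had a median of -0.35 without *daf-16* and -1.0 with it. Without *daf-16* this median rested on replicate 2 of e1370, being -0.06 without that array and 0.08 without replicates 2 and 5. *vit-1* differed by -0.53 without *daf-16* and fell by 2.53 with it (limma adjusted p = 0.0161).

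The highest list median without *daf-16* was that of the 56 mitochondrial ribosomal protein genes, which make the translation machinery of mitochondria. It was 0.27 (quartiles 0.11 and 0.47) against 0.73 with *daf-16*, and 51 of the 56 lay higher in e1370. At an unadjusted p under 0.05, 8 were higher and none lower without *daf-16*, led by *mrpl-51* (1.01 ± 0.40), *mrpl-50* (0.90 ± 0.34), *mrps-27* (0.90 ± 0.31) and *mrpl-24* (0.87 ± 0.26). With *daf-16* 6 rose, among them *mrpl-54* and *mrps-17*. The median ran from 0.14 (without replicate 5 of e1370 without *daf-16*) to 0.41 (without replicate 4) when arrays were left out in turn. Over the other settings it ran from 0.09, without replicates 2 and 5 of that genotype, to 0.64, in a fit that held RNA integrity, described further on, constant. Genes of the cytosolic ribosome, 76 in number, had a median of -0.04.

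The neuropeptide genes, 83 of the flp and nlp families, had a median of -0.22 without *daf-16* against 0.09 with it, and 10 were lower and none higher at an unadjusted p under 0.05. Leaving out single arrays of e1370 without *daf-16* moved the median to between -0.34 (replicate 2) and -0.10 (replicate 3), and it was -0.07 with RNA integrity as a covariate. *flp-16* averaged 6.38 in e1370 and 7.38 in m577 without *daf-16*, a difference of -1.01 ± 0.27, and *nlp-12* differed by -0.93 ± 0.28, both uncalled (limma adjusted p = 1). With *daf-16* these genes differed by -0.19 and -0.06. Saposin-like genes, 18 in number, had 3 lower at an unadjusted p under 0.05, *spp-1*, *spp-4* and *spp-8* (-1.35 to -1.06), and a median of -0.19.

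**Figure D4:**
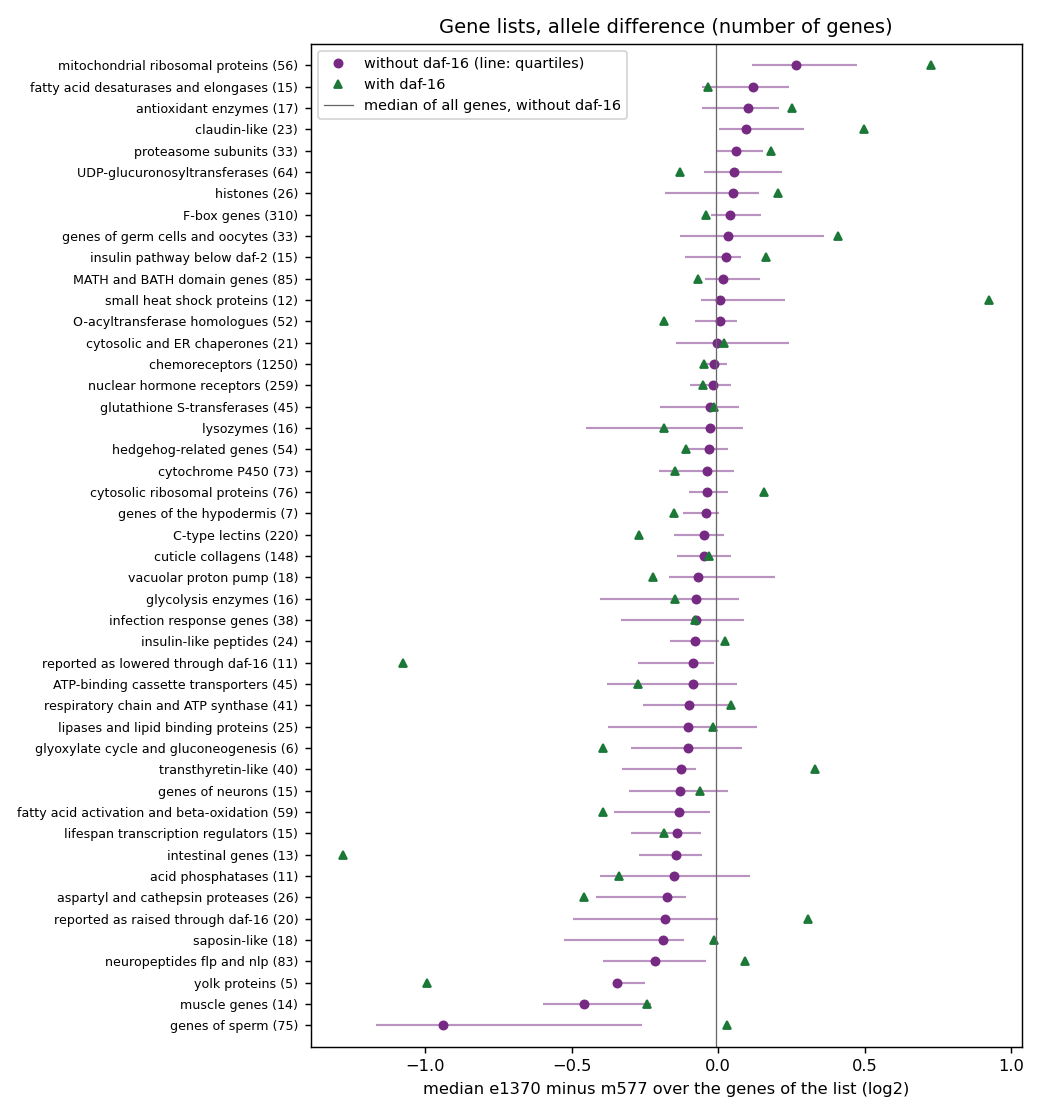
Median e1370 minus m577 difference of each of the 46 gene lists (log2), without *daf-16* (purple circles, with lines to the quartiles) and with *daf-16* (green triangles). The number of genes is in brackets. Without *daf-16* the medians run from -0.94 for the sperm genes to 0.27 for the mitochondrial ribosomal proteins.

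Germ line genes varied widely between the arrays of every genotype except m577 without *daf-16*. The SD of the mean level of sperm genes was 1.19 in e1370 and 0.17 in m577 without *daf-16*, and 0.78 and 0.93 with it. For germ cell and oocyte genes it was 1.15 and 0.32 without *daf-16*, and 1.07 and 0.99 with it. The 75 sperm genes had a mean level of 9.92, 10.21, 8.57, 9.59 and 7.29 in e1370 without *daf-16*, against 10.08, 9.71, 10.01, 9.79 and 9.73 in m577 without *daf-16*. Replicates 3 and 5 of e1370 were far below the rest, and the other 3 lay within or close to the m577 range. The list had a median of -0.94, with 68 of 75 genes lower in e1370, but 2 at an unadjusted p under 0.05, and none called. Without replicate 5 of e1370 without *daf-16* the median was -0.34, and over all arrays left out in turn it ran from -1.26 to -0.34. With *daf-16* it was 0.03. The 33 germ cell and oocyte genes averaged 9.35, 8.02, 10.87, 9.33 and 10.65 in e1370 without *daf-16*, against 9.98, 9.09, 9.66, 9.56 and 9.54 in m577 without *daf-16*, so that replicates 3 and 5 of e1370 were highest and replicate 2 lowest. Their median was 0.03. The 14 body muscle genes had a median of -0.46, all 14 lower in e1370 and none at an unadjusted p under 0.05, and mean levels from 9.21 to 10.60 in e1370 and 10.03 to 10.74 in m577. The muscle median ran from -0.62 to -0.21 when arrays were left out in turn, and was -0.21 without replicate 5 of e1370 without *daf-16* and -0.09 without replicates 2 and 5. With the oocyte and sperm means as covariates 3 probe sets were called without *daf-16*. Leaving out the 3 arrays lowest in sperm genes, 1 of them from e1370 without *daf-16*, a choice made after seeing the data, gave 1 call without *daf-16*, 309 with it and 35 for the dependence on it.

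**Figure D5:**
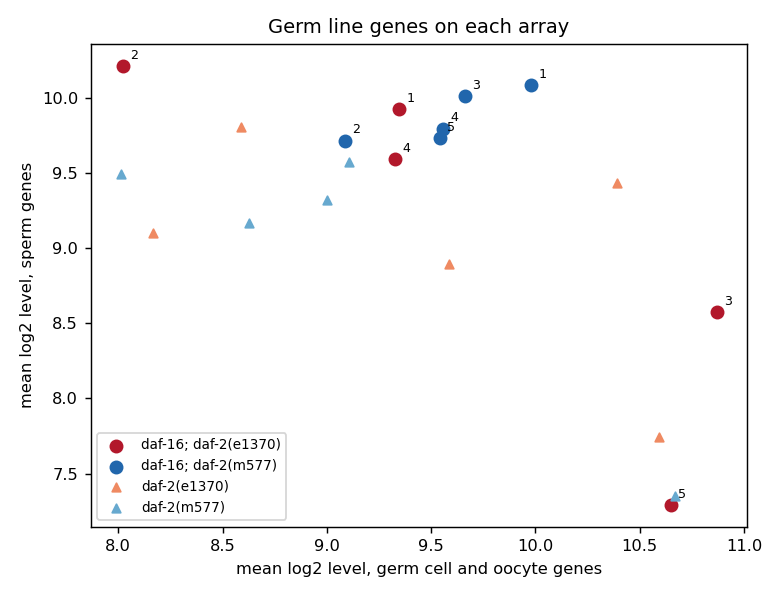
Mean log2 level of 33 germ cell and oocyte genes (horizontal) and of 75 sperm genes (vertical) on each of the 20 arrays. Circles are e1370 (red) and m577 (blue) without *daf-16*, with replicate numbers, and triangles are e1370 and m577 with *daf-16*. The m577 arrays without *daf-16* lie close together, while e1370 arrays without *daf-16* range from 7.29 to 10.21 in sperm genes. Arrays with *daf-16* are also spread out, from 7.7 to 9.8 in e1370 and from 7.3 to 9.6 in m577.

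A measure of RNA integrity also differed. The signal at the 3' end minus that at the 5' end, averaged over control probe sets for GAPDH, actin and ubiquitin, was 1.55, 1.49, 1.5, 1.29 and 1.54 in e1370 without *daf-16*, against 2.32, 1.75, 1.82, 1.76 and 1.72 in m577 without *daf-16*. The groups did not overlap. The means were 1.47 ± 0.11 in e1370 and 1.87 ± 0.25 in m577 (SD, n = 5 each; difference -0.40, p = 0.00794 by a 2-sided exact permutation test, which cannot go lower with 5 arrays a side). On the arrays with *daf-16* the means were 1.375 ± 0.19 in e1370 and 1.33 ± 0.16 in m577 (SD, n = 5 each), so m577 without *daf-16* had the highest mean. With the 3' minus 5' measure as a covariate no probe set was called without *daf-16*, 16 were called for the dependence on *daf-16*, and the catalase difference was 2.36. Beyond these fits, the part of integrity in the values was not tested.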

How the data were processed

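Log2 expression values were deposited, the log2 scale being read from their range. MAS 5.0 processed the scans, per the labels, and the authors then ran RMA on the 20 arrays jointly (Affymetrix package of R, version 1.4.14). RMA as usually run makes array distributions alike, so a change in total RNA would not be seen. Of 22625 probe sets, 77 Affymetrix controls were left out and 22548 tested. 20766 had 1 gene symbol in the platform annotation, 887 several and 895 none, and no gene was named from several symbols. By gene identifier, 20701 were matched to RefSeq genes for names and chromosomes.

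limma 3.58.1 (R 4.3.3) estimated the mean of each genotype from all 20 arrays and tested the contrasts after eBayes, 2-sided, with Benjamini-Hochberg adjustment over all probe sets. Control probe sets came from a second fit that kept them in. The probe set with the highest mean stood for each of 17118 genes in 46 lists. Named without *daf-16* were at most 15 called genes in each direction with 1 symbol and no overlap between groups, filled in order of p to 8, and with *daf-16* the 10 largest rises and falls by the same criteria. The *daf-16*, *daf-2* and *glp-4* probe sets and up to 4 members of a list were named too, and others named were chosen after their values were seen. For the dependence on *daf-16* they were the 6 largest in each direction. The members and lists were chosen with earlier results of these data known. The fit was tested on simulated data. Figures were drawn with matplotlib 3.10.9.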

Additional observations from a re-analysis of the deposited data

Results flagged for a closer look

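In 7 of 96 groups of 5 arrays examined, 1 array lay far from the others by Dixon's test, which chance does in about 1 group in 20. The level of *dod-3* on replicate 2 of e1370 without *daf-16* was 9.27, where the other 4 ran from 7.36 to 7.61. On the same array *irg-8* was at 10.97, against 12.18 to 12.32 on the others, and *R09H10.5* at 8.80, against 11.55 to 12.39. The 3' minus 5' difference on replicate 4 of this genotype was 1.29, below the 1.49 to 1.55 of the others. In m577 without *daf-16*, *ilys-5* was lowest on replicate 1, at 12.10 against 12.66 to 12.86, the 3' minus 5' difference was highest on that array, at 2.32 against 1.72 to 1.82, and *K03D3.2* on replicate 5 was at 5.76 against 5.13 to 5.24.

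The allele difference with *daf-16* minus that without it passed its test for 33 genes (limma, adjusted p under 0.05), of which the 6 largest in each direction are given. It was positive for *cdr-3* (3.78), *F40G12.5* (2.88), the fatty acid and retinol binding protein gene *far-7* (2.82), *dod-3* (2.74), *gst-3* (2.65) and the cytochrome P450 gene *cyp-13B1* (2.57). It was negative for *ilys-5* (-5.76), *C32H11.4* (-4.18), *irg-5* (-3.92), *C17H12.8* (-3.47), *dod-24* (-3.12) and *C17H12.6* (-2.47). For *far-7* and *dod-3* this call was lost when some single arrays were left out, with adjusted p up to 0.082 and 0.0743.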

How the results depend on the processing

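The count of calls without *daf-16* was 1, and it was 0 with cyclic loess, with only the genotypes compared, in a test against a 1.2-fold change and with the 3' minus 5' covariate, 3 with the oocyte and sperm covariates and 99 with array quality weights. With 1 probe set per gene it was also 0. The catalase probe set has 2 symbols and was absent there by construction, and none of the 17118 tested was called. Of the 99 called with array quality weights, out of 22548 tested, 37 were higher and 62 lower in e1370. Under the same weights 2611 of the 22548 were called with *daf-16*, 19 of the 99 among them. Of these 19, 10 had the same direction and the others the opposite one. Array weights gave 1113 for the dependence on *daf-16*. With *daf-16* the count was 297, and it was 176 with only the genotypes compared, 91 in the 1.2-fold test and 1255 with the oocyte and sperm covariates. For the dependence on *daf-16* it was 40, and 24, 103 and 16 in the 1.2-fold test, with the oocyte and sperm covariates and with the 3' minus 5' covariate. The median difference without *daf-16* of probe sets called with it was 0.09, and 0.34 with only the genotypes compared. Leaving out each array in turn gave 0 to 5 calls without *daf-16* (5 without replicate 1 of m577 without *daf-16*), 121 to 695 with *daf-16* and 24 to 71 for the dependence. The count with *daf-16* moved most without replicates 1, 3 and 4 of e1370 (162, 695 and 166) and 1 to 5 of m577 (179, 144, 632, 121 and 124) with *daf-16*, and without replicate 2 of e1370 without *daf-16* (604). For the dependence it was 71 without replicate 5 of e1370 with *daf-16*, 67 without replicate 2 of e1370 without *daf-16*, 24 without replicate 2 or 3 of m577 without *daf-16*, 25 without replicate 3 or 4 of e1370 without *daf-16* or 4 of m577 with it, and 26 without replicate 4 of m577 without *daf-16* or 5 of m577 with it. The median ran from 0.04 to 0.25, and the value with *daf-16* of the probe sets called without it from -0.34 to 0.39 (0.07 with all arrays). Chosen after seeing the data, leaving out replicates 2 and 5 of e1370 without *daf-16* gave 4 calls without and 856 with *daf-16*, 55 for the dependence and a median of -0.06, with the sign turned. With a replicate block the counts were 3, 225 and 40. The numbers were not taken to pair the arrays, since same-numbered arrays without *daf-16* deviated together at r = -0.34 to 0.15 and 1 of 5 e1370 arrays correlated best with its own number. The causes of these changes were not tested. Background limits differences of dim probe sets.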

Other observations

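With array quality weights, which count arrays that stand apart for less, the 99 probe sets called without *daf-16* included genes named above: the catalase probe set (2.93, limma adjusted p = 6.2e-06), *dod-3* (-2.39, adjusted p = 1.19e-05), both *ucr-2.2* probe sets (-1.88 and -1.82), *Y51H4A.5* (-1.96) and *fat-7* (1.28, adjusted p = 0.0125). They also included the metallothionein *mtl-1* (-1.74, adjusted p = 0.0315) and the long noncoding RNA gene *tts-1* (-1.45, adjusted p = 0.0229), whose unweighted differences were -0.60 and -0.69. None of the 99 was among the 75 probe sets that stand for the sperm genes. With 99 of 22548 probe sets called, few or none would be called among 75 in any case. Other probe sets of sperm genes were not counted. The weights of the arrays were 0.188 to 1.91 in e1370 without *daf-16* and 0.37 to 6.39 in m577 without *daf-16*. In m577 without *daf-16* replicates 3 and 4 counted most, at 6.39 and 6.36, and the next weight was 2.18.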
